A study of Homo sapiens with 6 samples.

Results

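Interferon-stimulated genes are the transcripts that cells switch on when interferon binds its receptor, and the 41 examined here encode antiviral proteins and the factors that control them. They were taken by name from the platform annotation of the array: 40 of the 41 had at least 1 probe set with that gene as its single symbol (42 such probe sets), out of 22395 genes and 53617 probe sets in all. IRF9 and GBP2 have 2 probe sets each, and of these the brighter was used. STAT2 has no probe set named here and was not analysed. All samples were A549, a long-used human cell line grown from a lung adenocarcinoma, with 2 arrays for each of 3 groups: cells given 2 µM Comp.4, cells given 2 µM Comp.2, and cells given vehicle alone. Treatment began 24 h after plating and RNA was taken 2 days later. The labels name no further treatment or genetic change for any group. The series title describes sequence-specific inhibitors of histone acetyltransferases, enzymes that acetylate chromatin, and the comparisons ask how each code-named compound altered transcript levels.

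In the textbook pathway, type I interferons bind the receptor pair IFNAR1 and IFNAR2, the kinases JAK1 and TYK2 phosphorylate STAT proteins, and a complex that includes STAT2 and IRF9 binds a promoter element called the interferon-stimulated response element. Its targets include enzymes that sense or degrade viral RNA, GTPases and membrane proteins that block virus entry or assembly, and the ubiquitin-like modifier ISG15. Epithelial lung cells express this programme at a low level until they meet virus or interferon, and A549 cells are widely used as hosts for respiratory viruses.

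The promoters of the 4 members with the largest differences in any comparison are shown because 2 of them, HERC6 and HERC5, are neighbours on chromosome 4 that had the same direction under each comparison, while the other two, IFI6 and SAMD9, had the largest differences between Comp.2 and vehicle. Each is the stretch of 250 bases before the RefSeq start of the gene (GRCh38.p14), written 5′ to 3′ on the strand of the gene, and capitals mark each match to the core of the response element, 2 copies of GAAA with any 2 bases between them, on either strand. The HERC6 stretch is chr4:88378602-88378851 and the HERC5 stretch chr4:88456869-88457118, both on the plus strand; that of IFI6 is chr1:27672193-27672442 and that of SAMD9 chr7:93117980-93118229, both on the minus strand.
HERC6: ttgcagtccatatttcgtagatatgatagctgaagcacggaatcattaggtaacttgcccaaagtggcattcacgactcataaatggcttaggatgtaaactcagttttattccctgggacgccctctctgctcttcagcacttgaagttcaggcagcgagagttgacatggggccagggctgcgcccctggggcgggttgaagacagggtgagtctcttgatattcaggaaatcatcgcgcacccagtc
HERC5: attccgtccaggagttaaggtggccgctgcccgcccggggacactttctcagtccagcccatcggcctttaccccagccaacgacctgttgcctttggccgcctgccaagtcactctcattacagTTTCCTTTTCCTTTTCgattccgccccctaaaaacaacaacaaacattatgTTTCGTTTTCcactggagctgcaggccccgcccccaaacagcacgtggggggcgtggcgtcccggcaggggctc
IFI6: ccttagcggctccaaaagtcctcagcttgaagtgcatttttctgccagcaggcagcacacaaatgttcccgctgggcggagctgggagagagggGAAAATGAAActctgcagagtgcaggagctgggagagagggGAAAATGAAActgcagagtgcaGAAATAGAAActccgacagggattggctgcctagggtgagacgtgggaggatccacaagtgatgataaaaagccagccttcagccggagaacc
SAMD9: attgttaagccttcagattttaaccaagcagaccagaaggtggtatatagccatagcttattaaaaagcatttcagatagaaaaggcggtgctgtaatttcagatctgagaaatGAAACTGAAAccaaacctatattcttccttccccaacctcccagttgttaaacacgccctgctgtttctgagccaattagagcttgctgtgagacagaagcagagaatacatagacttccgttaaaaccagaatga
IFI6 had 3 matches and SAMD9 1. HERC5 had 3, of which 2 overlap and all were found on the opposite strand, and HERC6 had none, which says only that these letters are not in that window. Of the 32 listed genes with a promoter in the RefSeq table, 18 (56.2%) held the motif, against 3.02% of all 35116 promoters of that length. A match is a description of letters and not a measured binding site.

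Levels are the deposited log2 values. On every array, 2 members lay above the 90th percentile of all probe sets, EIF2AK2 and IFITM2, and 14 to 16 of the 40 lay below the median of all probe sets. The members with the lowest vehicle means were IFI44 (2.82 under Comp.4, 2.75 under Comp.2 and 2.73 with vehicle), BST2 (3.19, 3.36 and 3.14 in the same order) and IFIT3 (3.41, 3.41 and 3.17). Probes differ in how well they bind, so a level compares samples and not genes, and differences of dim probe sets come out too small. Between replicate arrays the median absolute difference over the 40 members was 0.13 under Comp.4, 0.09 under Comp.2 and 0.11 with vehicle, and the largest was 0.61, for MX2 under Comp.2. Averaged over the 40 members, the level was 5.38 on both Comp.4 arrays, 5.43 and 5.44 on the Comp.2 arrays, and 5.35 on both vehicle arrays, while the mean over all genes stayed between 5.63 and 5.65.

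**Figure D1:**
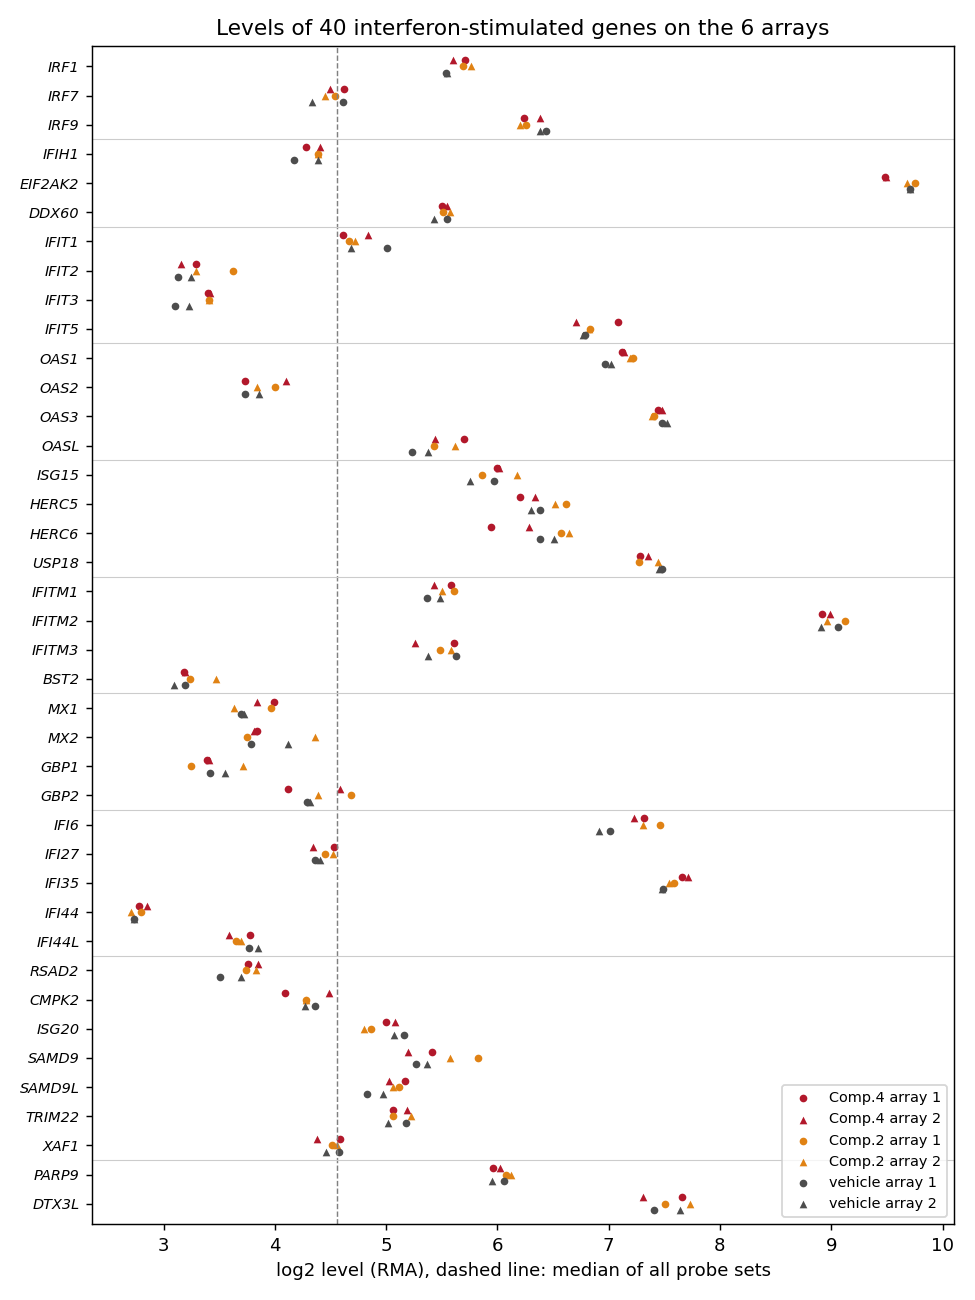
Log2 level (horizontal axis) of each of the 40 measured interferon-stimulated genes (rows, grouped by role) on the Comp.4, Comp.2 and vehicle arrays; circles are array 1 and triangles array 2, and the dashed line is the median of all probe sets. The 6 points of most genes lie close together, with MX2 the widest replicate pair (3.75 and 4.36 under Comp.2).

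Of 11 epithelial and tumour markers of the line, AKR1B10 (vehicle mean 11.8) and ALDH1A1 (12.41) were the brightest, while the lung lineage markers SFTPC (4.61) and NKX2-1 (4.27) lay near or below the median probe set, and none of the 11 passed the test in any comparison. None of 6 fibroblast or 7 endothelial markers passed either. Of 10 leukocyte markers 1, CD68, passed (limma adjusted p = 0.0412), being higher under Comp.2 than with vehicle by 0.67. In that comparison 0.196% of all genes passed. Under Comp.4 CD68 was higher than with vehicle by 0.39 (limma adjusted p = 0.107), again with no overlap of arrays. CD68 is also a lysosomal protein of other cells. PTPRC, the pan-leukocyte marker, had a vehicle mean of 2.70, below the lower quartile of the arrays. The other leukocyte markers differed between Comp.2 and vehicle by -0.07 to 0.23. In RNA from whole cultures, fewer cells that express a gene and less RNA per cell cannot be told apart.

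Comp.2 against vehicle asked which of these genes responded to that compound. No member passed limma's test (adjusted p under 0.05 over all genes), against 0.196% of all genes (0.134% higher and 0.0625% lower). At an unadjusted p under 0.05, 6 of 40 members were higher, against 6.23% of all genes, and 1 of 40 was lower, against 4.94%. Together these are 7 of 40 (17.5%), against 11.2% of all genes. Both Comp.2 arrays lay above both vehicle arrays for 18 of 40 members, against 22.7% of all genes. They lay below both for 5 of 40, against 21.0%. Arrays of the 2 groups did not overlap for 57.5% of members and 43.7% of all genes. The differences were small and mostly above 0: the median was 0.093 against 0.004 over all genes, and 32 of the 40 (80.0%) were above 0, against 51.3% of all genes. The 95% interval lay within 0.5 of 0 on the log2 scale for 34 members and within 1 (2-fold) for all 40. The highest upper bound was 0.66, for SAMD9, and the lowest lower bound -0.47, for ISG20. A missed threshold does not show that a member did not differ; the intervals give the sizes left possible. The values are given by role below with those of the other comparisons, which share arrays with this one.

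Comp.4 against vehicle gave no member past the threshold either, against 0.147% of all genes (0.0536% higher and 0.0938% lower). At the unadjusted level 3 of 40 members were higher, against 8.64% of all genes, and 2 of 40 lower, against 7.88%. Together these were 12.5% of members, against 16.5% of all genes. Both Comp.4 arrays lay above vehicle for 11 members, against 27.2% of all genes, and below for 5, against 22.2%; arrays did not overlap for 16 members and 49.4% of all genes. The median was 0.036 against 0.018 over all genes, and 22 of 40 (55.0%) were above 0, against 54.9%. Intervals lay within 0.5 of 0 for 36 members and within 1 for all 40, the extremes being an upper bound of 0.55 for OASL and a lower bound of -0.62 for HERC6.

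Comp.4 against Comp.2, at the same dose and day, also had no member past the threshold, against 0.371% of all genes (0.192% higher and 0.179% lower). At the unadjusted level 1 of 40 was higher under Comp.4, against 7.52% of all genes, and 4 of 40 were lower, against 7.45%. Together these were 12.5% of members, against 15.0% of all genes. Both Comp.4 arrays lay above both Comp.2 arrays for 3 of 40 members, against 23.7% of all genes. They lay below both for 8 of 40, against 21.6%. Arrays did not overlap for 27.5% of members and 45.3% of all genes. The median was -0.048 against 0.008, and 14 of 40 (35.0%) were above 0, against 52.3% of all genes. Intervals lay within 0.5 of 0 for 34 members and within 1 for all 40. The lowest bound was -0.79, for HERC6, and the highest 0.40, for MX1, so a 2-fold difference between the compounds, on this scale, lay outside the interval of every measured member. A p that misses the threshold does not show that the compounds act alike.

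**Figure D2:**
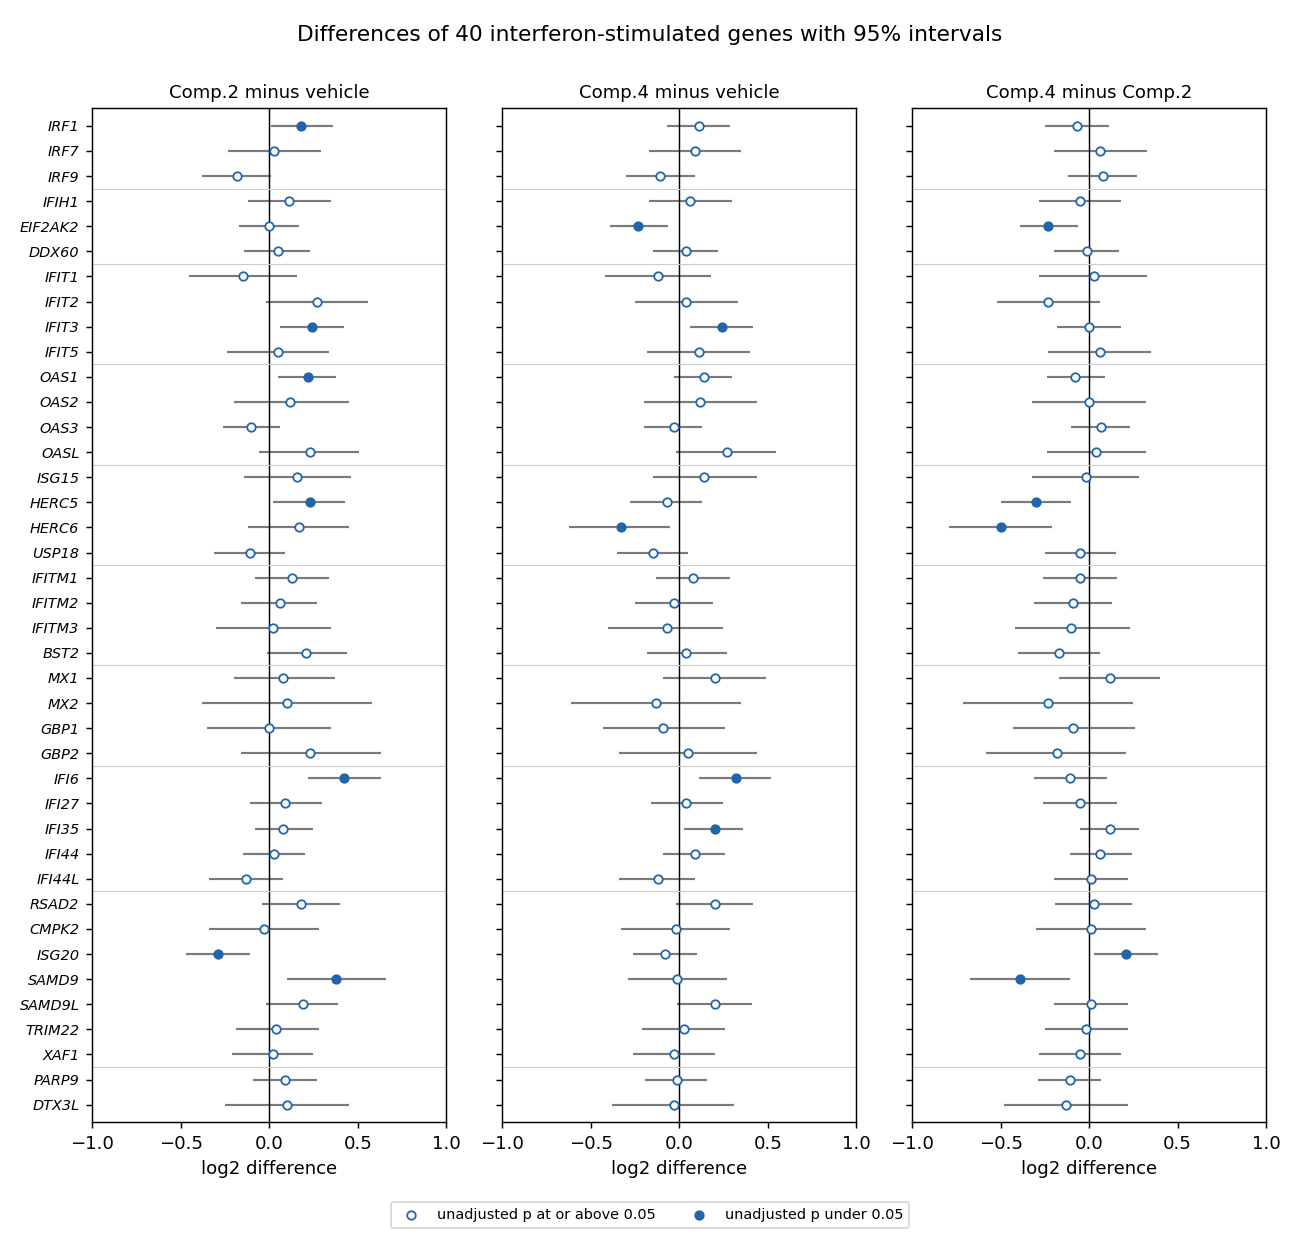
Log2 difference (points) with 95% interval (lines) of each of the 40 genes in the 3 comparisons, from the limma fit of all arrays; filled points have an unadjusted p under 0.05. All intervals stay inside -1 to 1, and IFI6 lies to the right of 0 in both comparisons with vehicle (0.42 and 0.32).

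**Figure D3:**
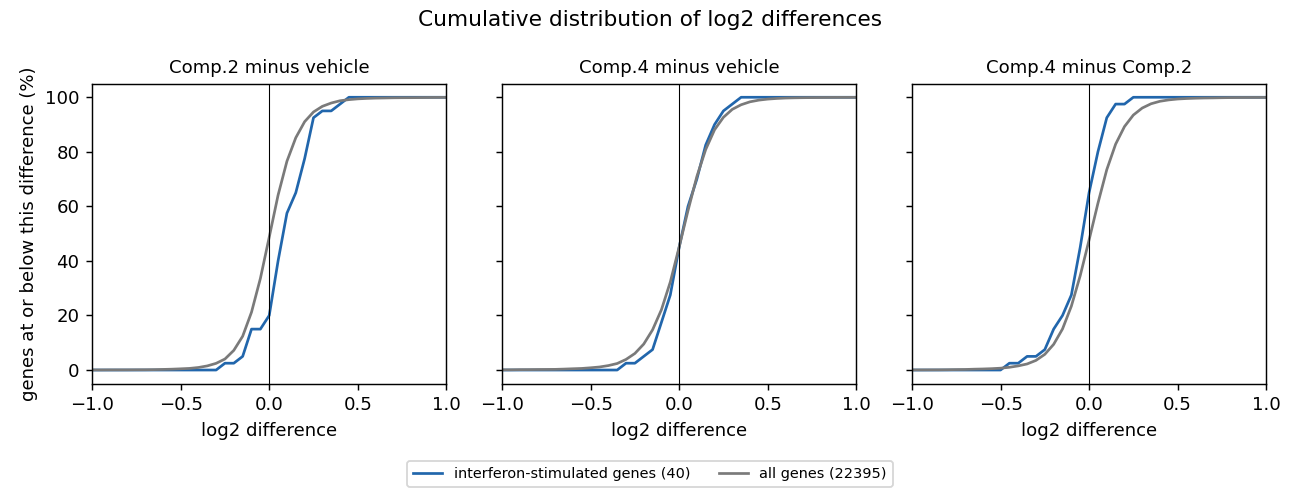
Percentage of genes at or below each log2 difference, for the 40 interferon-stimulated genes and for all 22395 genes. The line of the 40 genes lies to the right of that of all genes for Comp.2 against vehicle (median 0.093 against 0.004) and close to it for Comp.4 against vehicle (0.036 against 0.018). For Comp.4 against Comp.2 the median of the 40 genes lies to the left of that of all genes (-0.048 against 0.008).

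Among the factors that drive the programme, IRF1 and IRF7 are transcription factors induced by interferon, and IRF9 is the DNA-binding partner of the STAT proteins. IRF1 averaged 5.66 ± 0.07 under Comp.4 and 5.73 ± 0.05 under Comp.2, against 5.54 ± 0.01 with vehicle (SD, n = 2 each). Every treated array was above both vehicle arrays, by 0.18 for Comp.2 (SE 0.07) and 0.11 for Comp.4. IRF7 differed from vehicle by 0.03 under Comp.2 and 0.09 under Comp.4, with arrays of all groups overlapping. IRF9 had -0.18 under Comp.2 and -0.11 under Comp.4 on its brighter probe set, but 0.18 and -0.06 on its other probe set, so its direction under Comp.2 is unsettled.

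Of the RNA sensors, IFIH1 and DDX60 act in recognition of viral RNA, and EIF2AK2 encodes the kinase PKR, which halts translation when it binds double-stranded RNA. EIF2AK2 had 9.48 and 9.49 under Comp.4 and 9.75 and 9.68 under Comp.2, against 9.71 on both vehicle arrays. The Comp.4 arrays were the lowest of the 6, while Comp.2 and vehicle arrays overlapped. The difference was -0.23 both from vehicle (SE 0.07, limma adjusted p = 0.194) and from Comp.2 (SE 0.07, adjusted p = 0.224). With a variance trend in limma EIF2AK2 passed, at adjusted p = 0.0139 and 0.015, but many more of all genes passed in that setting too. Over the alternatives other than leaving an array out, the adjusted p of EIF2AK2 ran from 0.0139 to 0.281 against vehicle. Against Comp.2 it ran from 0.015 to 0.349. With an array left out the difference was -0.23 to -0.22 from vehicle and -0.26 to -0.19 from Comp.2. IFIH1 and DDX60 differed from vehicle by 0.04 to 0.11 under either compound.

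The IFIT proteins bind viral RNA ends and interfere with translation, and their 4 genes here are neighbours on chromosome 10. IFIT3 had 3.40 and 3.42 under Comp.4 and 3.41 on both Comp.2 arrays, against 3.10 and 3.23 with vehicle. All treated arrays were above both vehicle arrays, by 0.24 for each compound (SE 0.08; limma adjusted p = 0.336 for Comp.2 and 0.2 for Comp.4), at a level below the lower quartile of the arrays. IFIT2 had 3.29 and 3.16 under Comp.4 and 3.62 and 3.29 under Comp.2, against 3.13 and 3.25 with vehicle. Its Comp.2 difference of 0.27 was 0.11 without Comp.2 replicate 1 and 0.43 without Comp.2 replicate 2. IFIT1 had -0.12 under Comp.4 and -0.15 under Comp.2, and IFIT5 had 0.11 and 0.05, each smaller than the widest gap between replicate arrays of that gene, and the 4 fitted differences from vehicle did not share a sign.

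The oligoadenylate synthetases make the messenger that activates RNase L, and OASL is a family member without that activity that acts in RNA sensing. OAS1 and OAS3 lay well above the median probe set and OAS2 below it. OAS3 had 7.44 and 7.48 under Comp.4 and 7.41 and 7.39 under Comp.2, against 7.48 and 7.52 with vehicle, differences of -0.03 and -0.10. OASL had 5.70 and 5.44 under Comp.4 and 5.43 and 5.62 under Comp.2, against 5.23 and 5.38 with vehicle. Its treated arrays were all above the vehicle arrays, by 0.27 for Comp.4 (SE 0.12, limma adjusted p = 0.325) and 0.23 for Comp.2 (SE 0.12, adjusted p = 0.528). With 1 array left out these were 0.14 (without Comp.4 replicate 1) to 0.40 and 0.13 (without Comp.2 replicate 2) to 0.32. OAS1 also had all treated arrays above vehicle, by 0.14 and 0.22 in the same order, with means of 7.13 under Comp.4, 7.21 under Comp.2 and 6.99 with vehicle.

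ISG15 is a ubiquitin-like modifier, HERC5 its main ligase in human cells, HERC6 a close relative of HERC5, and USP18 the protease that removes ISG15 and also restrains the receptor. HERC6 had 5.94 and 6.28 under Comp.4 and 6.57 and 6.64 under Comp.2, against 6.38 and 6.51 with vehicle. The Comp.4 arrays were the lowest and the Comp.2 arrays the highest of the 6, with no overlap between groups. HERC6 had the largest difference of any member in any comparison, -0.50 between Comp.4 and Comp.2 (SE 0.12, 95% interval -0.79 to -0.21, limma adjusted p = 0.151). Against vehicle it was -0.33 under Comp.4 (SE 0.12, adjusted p = 0.246), but -0.17 without Comp.4 replicate 1 and -0.50 without Comp.4 replicate 2, and it was 0.17 under Comp.2. The difference between the compounds passed with a variance trend (limma adjusted p = 0.0341) and among the brighter genes (0.0454). Many more of all genes passed in those settings too. Over the alternatives other than leaving 1 array out, the adjusted p of this difference ran from 0.0341 to 0.257. That difference was -0.33 without Comp.4 replicate 1 and -0.67 without Comp.4 replicate 2, and the Comp.4 arrays differed more from each other than those of the other groups.

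HERC5, its neighbour, had 6.20 and 6.34 under Comp.4 and 6.62 and 6.52 under Comp.2, against 6.38 and 6.30 with vehicle. The Comp.2 arrays stood above the other 4, which overlapped, so the difference between the compounds was -0.30 (SE 0.08, 95% interval -0.50 to -0.10, limma adjusted p = 0.196). USP18 had 7.28 and 7.35 under Comp.4 and 7.27 and 7.44 under Comp.2, against 7.48 and 7.45 with vehicle. Each treated array was below both vehicle arrays, with differences of -0.15 and -0.11, and probes for USP18 may also bind its near-identical relative USP41. ISG15 differed from vehicle by 0.14 under Comp.4 and 0.16 under Comp.2. Its Comp.4 arrays (6.00 and 6.01) lay above both vehicle arrays (5.97 and 5.75), while its Comp.2 arrays overlapped those of vehicle.

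IFITM1, IFITM2 and IFITM3 block fusion of viruses with cell membranes, and BST2, or tetherin, holds budding viruses at the surface. IFITM2 had 8.92 and 8.99 under Comp.4 and 9.12 and 8.96 under Comp.2, against 9.06 and 8.91 with vehicle. The 3 groups overlapped, and the differences from vehicle were -0.03 and 0.06. IFITM1 (0.08 under Comp.4 and 0.13 under Comp.2) and IFITM3 (-0.07 and 0.02) had small differences too, and both Comp.2 arrays of IFITM1 lay above both vehicle arrays; the family has similar sequences, so single members are uncertain. BST2 was dim, with 0.04 under Comp.4 and 0.21 under Comp.2.

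The dynamin-like GTPases MX1 and MX2 trap viral ribonucleoproteins or capsids, and GBP1 and GBP2 act against intracellular pathogens. MX1 had 3.99 and 3.84 under Comp.4 and 3.97 and 3.63 under Comp.2, against 3.70 and 3.72 with vehicle. Only its Comp.4 arrays were both above vehicle, by 0.20 (SE 0.12, limma adjusted p = 0.462), or 0.13 without Comp.4 replicate 1. MX2 had 3.84 and 3.81 under Comp.4 and 3.75 and 4.36 under Comp.2, against 3.79 and 4.12 with vehicle, so all groups overlapped. GBP2 had 4.12 and 4.59 under Comp.4 and 4.68 and 4.39 under Comp.2, against 4.29 and 4.32 with vehicle. Differences between the compounds of -0.23 for MX2 and -0.18 for GBP2 each rested on 1 array: MX2 had 0.08 without Comp.2 replicate 2, and GBP2 had 0.05 without Comp.4 replicate 1. GBP1 differed from vehicle by -0.09 under Comp.4 and by 0.00 under Comp.2.

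Of the 5 IFI-named genes, IFI6 encodes a small membrane protein of mitochondria and endoplasmic reticulum with antiviral activity, and had 7.32 and 7.23 under Comp.4 and 7.46 and 7.31 under Comp.2, against 7.01 and 6.91 with vehicle. All treated arrays were above both vehicle arrays, and the compounds overlapped. IFI6 had the largest difference of the members under Comp.2, 0.42 (1.34-fold, SE 0.09, 95% interval 0.22 to 0.63, limma adjusted p = 0.178). Under Comp.4 it was 0.32 (1.25-fold, SE 0.09, interval 0.11 to 0.52, adjusted p = 0.16). With a variance trend both passed (limma adjusted p = 0.025 for Comp.2 and 0.0432 for Comp.4), and among the brighter genes the Comp.2 difference passed (0.0417). Many more of all genes passed in those settings too. Over the alternatives other than leaving 1 array out, the adjusted p of IFI6 ran from 0.025 to 0.326 under Comp.2. Under Comp.4 it ran from 0.0432 to 0.239. The difference was 0.35 to 0.50 under Comp.2 and 0.27 to 0.37 under Comp.4 with 1 array left out.

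IFI35, a cytosolic protein that regulates innate signalling, had 7.66 and 7.71 under Comp.4 and 7.59 and 7.54 under Comp.2, against 7.49 and 7.48 with vehicle. The 3 groups did not overlap, with differences from vehicle of 0.20 under Comp.4 (SE 0.07, limma adjusted p = 0.238) and 0.08 under Comp.2. IFI27, IFI44 and IFI44L differed from vehicle by -0.13 to 0.09 under either compound. IFI44 and IFI44L, neighbours on chromosome 1, are among the genes that respond most to interferon in many human cells, and neither was above the median probe set on any array.

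SAMD9 and SAMD9L encode related cytoplasmic proteins that restrict poxviruses, and they are neighbours on chromosome 7. SAMD9 had 5.41 and 5.20 under Comp.4 and 5.83 and 5.57 under Comp.2, against 5.27 and 5.37 with vehicle. Both Comp.2 arrays were above the other 4, by 0.38 over vehicle (SE 0.12, 95% interval 0.10 to 0.66, limma adjusted p = 0.34), or 0.25 without Comp.2 replicate 1. Comp.4 was lower than Comp.2 in SAMD9 by 0.39 (difference -0.39, SE 0.12, adjusted p = 0.218) and differed from vehicle by -0.01. SAMD9L had 5.17 and 5.03 under Comp.4 and 5.12 and 5.06 under Comp.2, against 4.83 and 4.97 with vehicle. Its treated arrays were all above vehicle, by 0.20 under Comp.4 (SE 0.09; 0.13 to 0.27 with 1 array left out) and 0.19 under Comp.2, and its difference between the compounds was 0.01, against -0.39 for SAMD9; this contrast between the neighbours was not tested.

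ISG20 is an exonuclease that degrades viral RNA and had 5.00 and 5.08 under Comp.4 and 4.86 and 4.80 under Comp.2, against 5.16 and 5.07 with vehicle. The Comp.2 arrays were the lowest, at -0.29 from vehicle (SE 0.08, 95% interval -0.47 to -0.11, limma adjusted p = 0.278), and Comp.4 was above Comp.2 by 0.21 (SE 0.08, adjusted p = 0.276). RSAD2, or viperin, makes a chain-terminating nucleotide, and its neighbour CMPK2 is a nucleotide kinase. RSAD2 had 3.76 and 3.85 under Comp.4 and 3.74 and 3.83 under Comp.2, against 3.51 and 3.70 with vehicle. Its treated arrays were above vehicle by 0.20 and 0.18 in the same order, at a dim level, and the Comp.4 difference was 0.11 without vehicle replicate 1 and 0.30 without vehicle replicate 2. CMPK2 had -0.02 and -0.03. TRIM22, an antiviral ubiquitin ligase, and XAF1, a pro-apoptotic factor, differed from vehicle by -0.03 to 0.04.

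PARP9 and DTX3L encode partners of 1 ubiquitin ligase complex and lie side by side on chromosome 3. DTX3L had 7.66 and 7.31 under Comp.4 and 7.51 and 7.73 under Comp.2, against 7.41 and 7.64 with vehicle, so the groups overlapped. Both genes had like values: 0.10 for DTX3L and 0.09 for PARP9 under Comp.2, and -0.03 and -0.01 under Comp.4. In all, 24 measured members lay in 10 groups of neighbours with at most 1 other protein-coding gene between adjacent members.

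**Figure D4:**
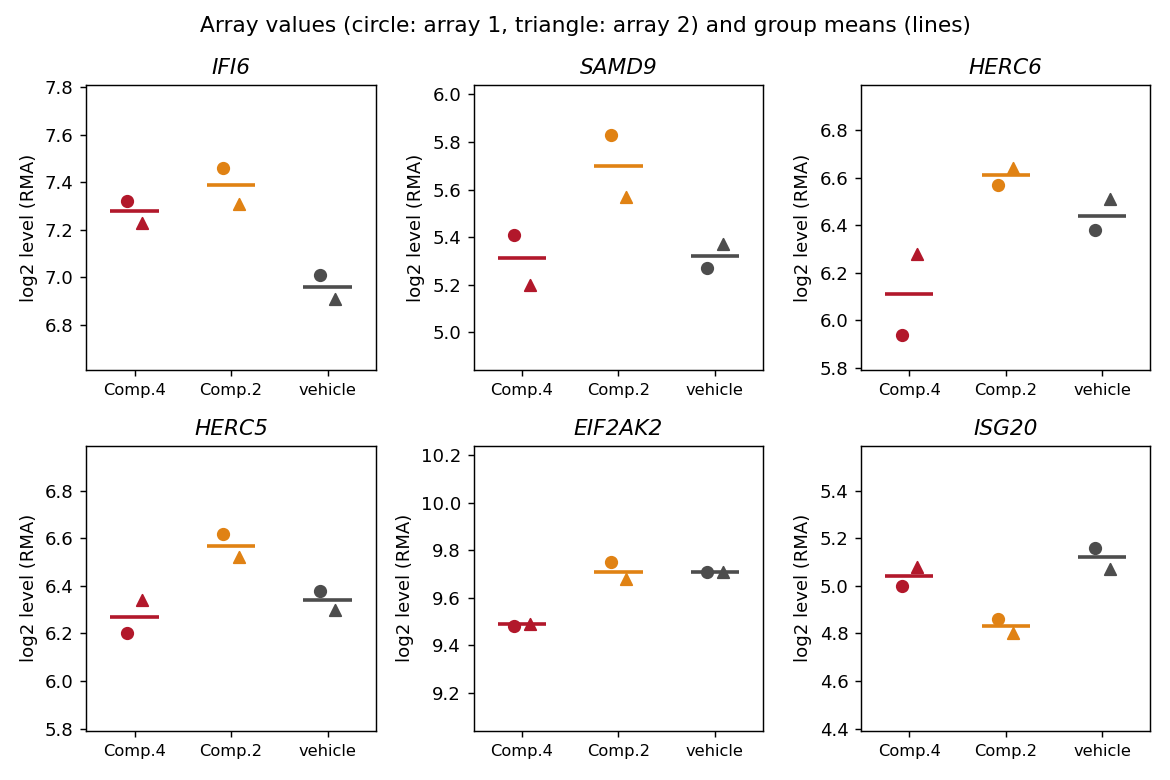
Log2 level (vertical axis, same span in every panel) of 6 members chosen after their values were seen, on the Comp.4, Comp.2 and vehicle arrays; lines are group means. IFI6 was above vehicle under both compounds, SAMD9 and HERC5 were highest under Comp.2, HERC6 and EIF2AK2 lowest under Comp.4, and ISG20 lowest under Comp.2.

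The members can be split by the GAAA repeat in their promoter window. Under Comp.2 against vehicle the 18 with it had a median of 0.07 and the 13 measured members without it 0.09; under Comp.4 against vehicle the medians were 0.04 and -0.01, and between the compounds -0.03 and -0.05. Over all measured genes with a promoter in the table, 415 held the motif, with medians of 0.01, 0.00 and 0.00. Of these, 1 gene was past the threshold in the first comparison and 0 in the others. The 15074 genes without it had medians of 0.00, 0.01 and 0.01, and 33, 10 and 40 of them were past the threshold. No test of the split was made.

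The rest of the pathway was described with 61 other genes, of which 57 were measured. None passed the threshold in any comparison. At an unadjusted p under 0.05, 7 were higher and 4 lower under Comp.2 against vehicle (19.3%, against 11.2% of all genes), 7 and 1 under Comp.4 against vehicle (against 16.5%), and 3 and 4 for Comp.4 against Comp.2 (12.3%, against 15.0%). Of the ligands, IFNB1, a type I interferon made on sensing viral RNA, had 3.42 and 3.72 under Comp.4 and 3.67 and 3.22 under Comp.2, against 3.40 and 3.07 with vehicle. Its difference was 0.34 under Comp.4 (SE 0.18, limma adjusted p = 0.422) and 0.21 under Comp.2, with the 3 groups between 3.07 and 3.72. Both Comp.4 arrays lay above both vehicle arrays, while the Comp.2 arrays overlapped those of vehicle. IFNE, an epithelial type I interferon, had 3.40 and 3.21 under Comp.4 and 3.61 and 3.69 under Comp.2, against 4.00 and 4.46 with vehicle. It had the largest difference of these genes, -0.92 under Comp.4 (SE 0.15, 95% interval -1.28 to -0.56, limma adjusted p = 0.0823). Under Comp.2 it had -0.58 (limma adjusted p = 0.278). With a variance trend the Comp.4 difference passed, as many more of all genes did. IFNE was dim, below the median probe set on every array and below the lower quartile on both Comp.4 arrays.

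IFNA5 had 4.45 and 4.76 under Comp.4 and 4.41 and 3.87 under Comp.2, against 4.86 and 4.94 with vehicle. Its difference was -0.76 under Comp.2 (SE 0.18, limma adjusted p = 0.237), and it was higher under Comp.4 than Comp.2 by 0.46. The gap between its Comp.2 arrays was wider than that difference between the compounds. IFNA7 had 0.45 between the compounds (SE 0.28), with arrays at 4.24 and 3.29 under Comp.4 and 3.14 and 3.48 under Comp.2 that overlapped. The IFNA genes are close copies of each other, so single members are uncertain. Against vehicle, the receptor gene IFNAR1 differed by 0.07 under Comp.4 and 0.04 under Comp.2, and the kinase gene TYK2 by 0.07 and 0.03. IFNAR2 had both Comp.4 arrays (7.68 and 7.59) above both vehicle arrays (7.36 and 7.48), a difference of 0.21 (SE 0.09, limma adjusted p = 0.301), and 0.08 under Comp.2. IFNGR1, a chain of the interferon gamma receptor, and the kinase gene JAK2 were chosen after their values were seen. IFNGR1 had 0.29 under Comp.4 (limma adjusted p = 0.16) and 0.22 under Comp.2 (adjusted p = 0.391), and JAK2 had -0.16 under Comp.4 (adjusted p = 0.371) and -0.35 under Comp.2 (adjusted p = 0.221). No treated array of either gene overlapped vehicle. JAK1 had 9.72 and 9.66 under Comp.4 and 9.91 and 9.99 under Comp.2, against 9.85 and 9.81 with vehicle. The 3 groups did not overlap, with a difference of -0.26 between the compounds (SE 0.07, limma adjusted p = 0.189). That difference passed with a variance trend, as many more of all genes did. All 6 receptor genes were above 0 under both compounds (medians 0.07 under Comp.4 and 0.08 under Comp.2), and of 10 negative regulators of the pathway 3 were above 0 under each (median -0.04 under both), against 54.9% of all genes above 0 under Comp.4 and 51.3% under Comp.2.

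Sensors and adaptors upstream of interferon included the largest positive differences of these genes under Comp.2, and those named here were chosen after their values were seen. All 13 measured were above 0 under Comp.2 (median 0.16), against 51.3% of all genes, and 5 of them were higher at an unadjusted p under 0.05, against 6.23%. Under Comp.4, 11 of 13 were above 0 (median 0.17), against 54.9% of all genes, and 4 of 13 were higher at that level, against 8.64%. RIGI, the sensor of viral RNA ends, had 6.78 and 6.99 under Comp.4 and 7.07 and 7.18 under Comp.2, against 6.61 and 6.52 with vehicle. Its difference was 0.32 under Comp.4 (limma adjusted p = 0.188) and 0.56 under Comp.2 (SE 0.10, adjusted p = 0.129). TLR3, the endosomal receptor of double-stranded RNA, had 4.98 and 5.14 under Comp.4 and 5.31 and 5.25 under Comp.2, against 4.81 and 4.65 with vehicle, a difference of 0.55 under Comp.2 (SE 0.09, adjusted p = 0.127). CGAS, the sensor of cytosolic DNA, had 4.85 and 4.81 under Comp.4 and 5.17 and 5.25 under Comp.2, against 4.79 and 4.78 with vehicle. Comp.2 stood apart there, by 0.42 over vehicle (SE 0.07, adjusted p = 0.127), and Comp.4 was at -0.38 from Comp.2 (SE 0.07, adjusted p = 0.1). RIGI and TLR3 passed under Comp.2 with a variance trend and RIGI among the brighter genes, settings in which many more of all genes passed.

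**Figure D5:**
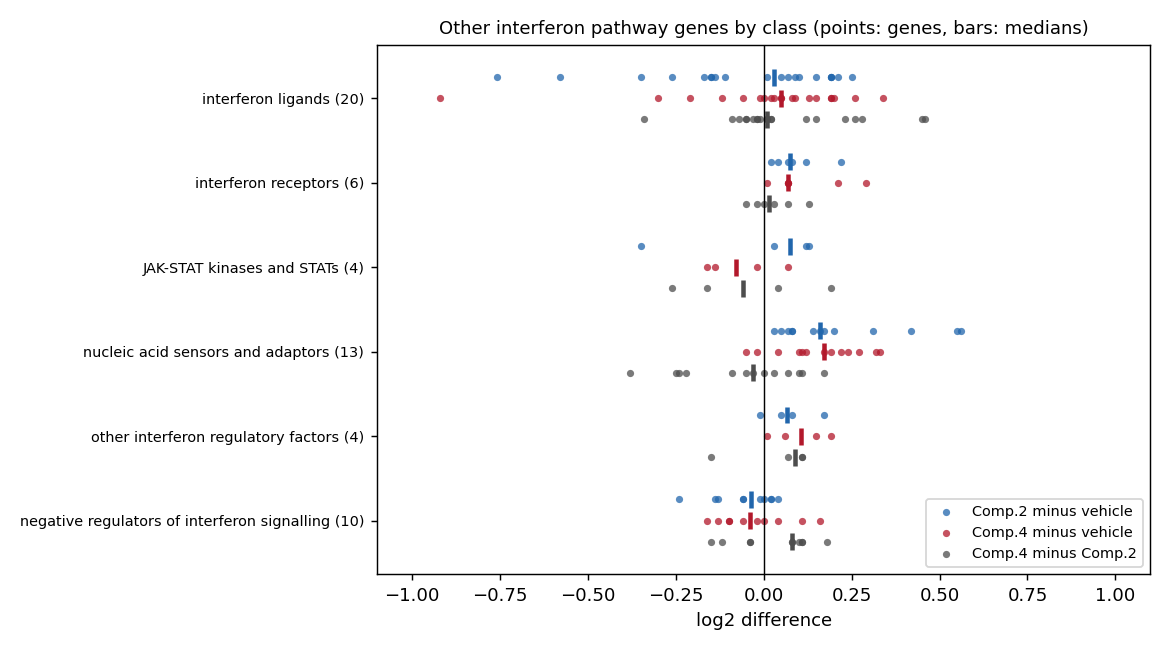
Log2 differences (points, 1 per gene) of the 57 other interferon pathway genes by class in the 3 comparisons, with class medians (bars). All 13 sensors and adaptors lie to the right of 0 for Comp.2 against vehicle and 11 of 13 for Comp.4 against vehicle (medians 0.16 and 0.17), and IFNE is the point farthest to the left (-0.92 under Comp.4).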

How the data were processed

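RNA from 6 A549 samples was hybridised to arrays after WT PLUS labelling, per the labels' protocols. The deposited values are log2 levels made by the authors with RMA, per the submitters' processing notes; these list 2 programs with no role, Expression Console 1.3.1 (Affymetrix) and version 2.0 of Transcriptome Analysis Console. Array medians were already equal (4.55 to 4.56), so a change shared by most transcripts cannot be seen. Scanner files and detection calls were not used here; precision is limited by how few arrays there are.

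Probe sets with 1 gene symbol in the platform annotation (23871 of 53617; 1842 had several and 27904 none) were kept, 90 symbols were updated through a RefSeq table (22569 Entrez numbers found), and the probe set with the highest mean stood for a gene, giving 22395 genes. limma 3.58.1 in R 4.3.3 fitted a mean per group to all 6 arrays (3 residual and 3.71 prior degrees of freedom). P-values are two-sided with Benjamini-Hochberg adjustment over all genes and a threshold of 0.05; the fit was tested on simulated data. With 2 arrays a group the smallest p of an exact two-sided permutation test is 0.333, so none was run. Nothing in the labels tells whether the replicates came from separate cultures; p-values thus reflect only how these samples vary, possibly for technical reasons.

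The members and all lists were chosen with earlier results of these data known. Members named with array values were the 8 with the largest difference in each comparison, any past the threshold, and the 6 with the highest vehicle mean; of the other pathway genes, the 2 largest per comparison and a fixed few, with exceptions said in the text. Markers of epithelium, leukocytes, fibroblasts and endothelium were listed too. Alternatives were a variance trend, brighter genes (above the median gene), the mean of a gene's probe sets, all probe sets, protein-coding genes, only the groups compared, median centring, a replicate block, and each array left out.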

Additional observations from a re-analysis of the deposited data

How the results depend on the processing

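Over the alternatives run, the count of members past the threshold, 0 in each comparison, went no higher than 2. With a variance trend it was 1 for Comp.2 against vehicle (IFI6) and 2 for Comp.4 against vehicle (IFI6 and EIF2AK2). It was also 2 for Comp.4 against Comp.2 (HERC6 and EIF2AK2). Among brighter genes, which hold 20 of the 40 members, it was 1, 0 and 1. Of the 57 other pathway genes, 2, 1 and 2 passed with a trend and 1, 1 and 0 among brighter genes, in the same order of comparisons. The counts over all 22395 genes, 44, 33 and 83, moved to 388, 1226 and 1075 with a trend. They were 233, 839 and 716 among the 11197 brighter genes, and 0, 99 and 2 with all probe sets. With only the groups compared they were 14, 0 and 0. The sets differ in size, so these counts do not show which moved more as a share. Protein-coding genes alone gave 0 for Comp.4 against vehicle and 47 for Comp.4 against Comp.2. With the replicate number as a block the counts over all genes were 15, 4 and 0, and no member or pathway gene passed; deviations of same-numbered arrays correlated at -0.042 to 0.029, and nothing in the labels pairs them.

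With any 1 of the 6 arrays left out, which costs residual degrees of freedom, no member and no pathway gene passed, and the counts over all genes were 0 to 14, 0 to 0 and 0 to 1. The members' median was 0.07 to 0.10 for Comp.2 against vehicle, 0.01 to 0.04 for Comp.4 against vehicle and -0.06 to -0.02 for Comp.4 against Comp.2. Of 324 recomputed differences of the members with the largest differences, 315 kept direction and side of the threshold, 7 newly passed (IFI6, EIF2AK2 and HERC6), and 2 changed sign: MX2 between the compounds was 0.08 without Comp.2 replicate 2, with a lowest value of -0.53 over the arrays left out, and GBP2 was 0.05 without Comp.4 replicate 1, with a lowest value of -0.42. The cause of these shifts was not tested. How far signal stands above background limits the dim members, and it was not measured here.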
